A study of Mus musculus with 8 samples.

Results

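The 10 genes described here encode the core of glutathione metabolism and of peroxide and superoxide removal: Gclc, Gclm, Gss, Gsr, Gpx1, Gpx4, Sod1, Sod2, Prdx1 and Prdx2. They were taken by symbol from the 55385 genes of a count table, and all 10 were among the 14929 genes that passed the filter on low counts. The libraries hold polyadenylated RNA from pools of mouse oocytes that were grown in culture from embryonic stem cells of the strain cross C57BL/6 x 129/SvJ. All stem cells carried the reporter transgenes Blimp1-mVenus and Stella-ECFP, and oocytes positive for the Stella reporter were collected. Germ cells made from the stem cells matured in aggregates with somatic cells of female gonads from embryonic day 12.5, so every oocyte came from a follicle with host somatic cells. In 1 line, sex-converted by its label, the XX stem cells go back to male cells. In the other, native by its label, they have been XX throughout. The name of the sex-converted line also holds the terms DsRed and XO, which the name of the native line lacks. Each line is represented by 1 stem cell line, so a difference between lines cannot be told apart from one between clones.

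Oocytes were taken at the germinal vesicle stage (GV, arrested in the first meiotic prophase) on day 11 of growth culture, or at metaphase II (MII, the mature egg) after a further 16 hours in maturation medium. The growth medium held 150 µM ascorbic acid and 100 µM 2-mercaptoethanol, both reducing agents, and the maturation medium as listed in the labels names neither. Stage and medium changed together, and their parts in a difference between GV and MII cannot be told apart. Each combination of line and stage has 2 libraries, named in the labels as biological duplicates and a GV library pools 31 to 158 oocytes and an MII library 35 to 58.

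Glutathione is a tripeptide of glutamate, cysteine and glycine that serves as the main soluble thiol of the cell. Glutamate-cysteine ligase, made of the catalytic subunit Gclc and the modifier subunit Gclm, performs the rate-limiting step, glutathione synthetase (Gss) adds glycine, and glutathione reductase (Gsr) returns the oxidised form to the reduced one with NADPH. Superoxide dismutases turn superoxide into hydrogen peroxide, which glutathione peroxidases and peroxiredoxins reduce. Oocytes accumulate glutathione during maturation, and the egg's store is used after fertilisation when the protamines of the sperm head are reduced.

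Library totals were 10306471 to 14999003 reads. A set of 12 oocyte markers was detected in full in every library, at a summed 13914 to 16624 CPM (counts scaled to a common library size) at GV and 17758 to 21269 CPM at MII. Somatic markers summed to far less than the oocyte markers and differed by stage. The 15 granulosa and cumulus markers other than Cyp19a1, Nr5a2 and Esr2, 3 genes that were left out after they were seen to be high in every library, summed to 12.2 to 15.6 CPM at GV. The same 15 summed to 53.1 and 49.6 CPM in sex-converted MII, and to 110.4 and 47.0 CPM in native MII. Of these sums, Kitl alone made 26.7 and 35.8 CPM in sex-converted MII and 21.2 and 24.65 CPM in native MII. Fshr went the other way, with 7 to 24 reads in GV libraries and 0 in each MII library. All 18 together summed to 129.8 to 137.7 CPM at GV and 190.5 to 267.5 CPM at MII. Stromal and theca markers summed to 1.34 to 2.21 CPM at GV and 3.61 to 19.8 CPM at MII, with Col1a2 and Lum at 0 reads in all libraries. Endothelial and blood markers summed to 77.6 to 114.8 CPM at GV and 206.9 to 291.9 CPM at MII, with Adgre1, Hba-a1 and Hbb-bt at 0 reads. Pecam1 alone made 58.9 to 88.4 CPM at GV and 189.7 to 275.4 CPM at MII. It was thus high in every library, like the 3 granulosa genes left out above, but was kept in its list. Native MII replicate 1 was the highest for each of these somatic sums, and for Inha, an inhibin subunit of granulosa cells, with 84 reads against 29, 0 and 21 in the other MII libraries. The same library was the highest of the MII libraries for 7 of the 10 enzymes (Gss, Gsr, Gpx1, Gpx4, Sod1, Sod2 and Prdx1). The part of somatic RNA in the values below was not tested. Values without this library are given below for Gss, Gpx1, Gpx4 and Sod1. For Gsr, Sod2 and Prdx1 the range with 1 library left out is given.

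Between GV and MII, the 10 genes parted in both directions. In the native line 3 were called higher at MII (Gclc, Gpx1 and Prdx1) and 4 lower (Gclm, Gss, Gpx4 and Sod1), by edgeR's quasi-likelihood test across all tested genes at a Benjamini-Hochberg adjusted p under 0.05. Of all tested genes, 29.6% were called higher and 35.7% lower in the same comparison. In the sex-converted line 2 were called higher (Gclc and Prdx1) and the same 4 lower, beside 29.3% and 36.2% of all genes. These counts are near the background, since about as large a share of all genes changed. The median log2 fold change of the 10 genes was 0.02 in the native line against -0.31 over all genes, and 0.27 against -0.35 in the sex-converted line. All values are relative to other mRNAs, by the trimmed mean of M-values (TMM). When libraries were scaled by their totals alone, the median of all genes moved by -0.91 in the native and -0.93 in the sex-converted line. On that scale 1 of the 10 genes was higher (Gclc) and 6 lower in the native line, and 1 higher (Gclc) and 5 lower in the sex-converted line. Of all called genes, 45.3% were higher in the native line with TMM and 24.6% with totals, and 44.7% and 23.4% in the sex-converted line.

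**Figure D1:**
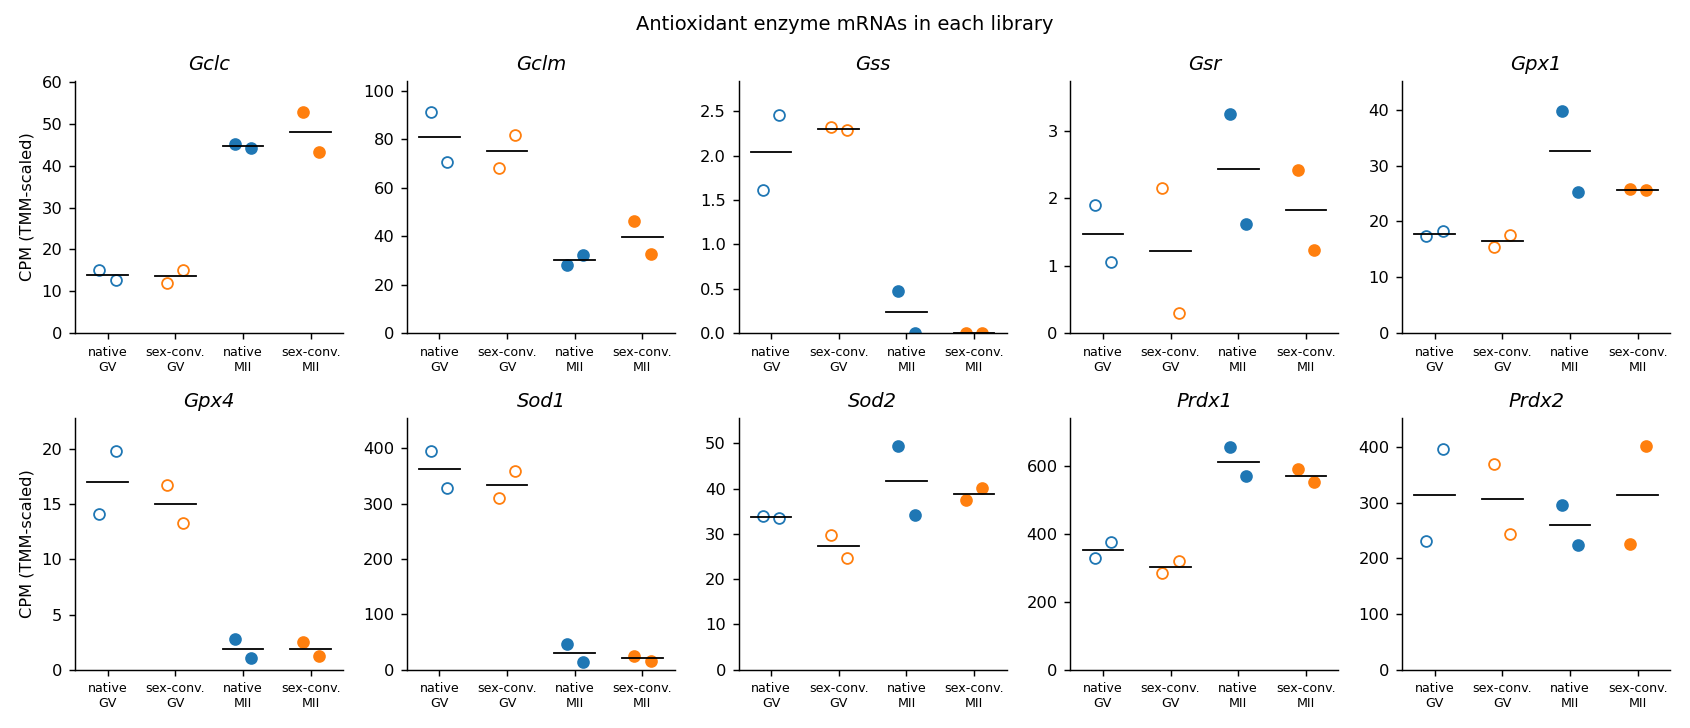
CPM scaled by TMM (vertical axis, from 0 in each panel) of the 10 enzymes in each library, with native oocytes in blue, sex-converted ones in orange, GV as open and MII as filled points, and a line at the mean of the 2 libraries. The GV and MII points of Gclc, Gclm, Gss, Gpx4 and Sod1 lie apart in both lines. On this scale those of Gpx1 and Prdx1 do too. For Sod2 they lie apart only in the sex-converted line, since native MII replicate 2 (34.1 CPM) lies beside the native GV libraries (33.9 and 33.5 CPM). The direction of Gpx1, Prdx1 and Sod2 reverses when libraries are scaled by totals alone. Sod2 was not called in either line with TMM, and the points of Gsr and Prdx2 overlap.

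RNA was purified through its poly(A) tail, and in oocytes tails are lengthened or removed during maturation under the control of sequences near the 3′ end. A change in the amount of an mRNA and a change in the length of its tail cannot be told apart here. The sites below show that end for the 6 genes that were called in both lines and for Gsr. They are 30 bases of the longest coding transcript in GENCODE M21 on GRCm38, printed 5′ to 3′ on the transcript's strand, with the polyadenylation signal (AATAAA or ATTAAA) in capitals, or for Gsr the cytoplasmic polyadenylation element TTTTAT.
Gclc, chr9:77794448-77794477, plus strand: gtggtctgagaaAATAAAaaatgggattcc
Prdx1, chr4:116700791-116700820, plus strand: tctgctctgcaaAATAAAtaggacttggcc
Gclm, chr3:122270703-122270732, plus strand: atacATTAAATAAATAAAtcttaaagttgt
Gss, chr2:155563187-155563216, minus strand: agctctgccctaAATAAAataacaatgctg
Gpx4, chr10:80056409-80056438, plus strand: ctgccttgtgggAATAAAatgtagaaatgt
Sod1, chr16:90226295-90226324, plus strand: taccctcaaaccATTAAActgtaatctgaa
Gsr, chr8:33698085-33698114, plus strand: ttttgttttgttTTTTATgaaaactgttcc
Within the last 100 bases, on the transcript's own strand, AATAAA or ATTAAA was found in 9 of the 10 genes, all but Gsr, and in 81.2% of the 12544 coding genes tested. Capitals run on in Gclm because 3 signals overlap there. The cytoplasmic polyadenylation element (TTTTAT or TTTTAAT) was found in 1 of the 10, Gsr, at 67 bases from the end, and in 19.3% of coding genes. Genes that were higher and genes that were lower at MII thus shared the signal and the lack of the element in this window, and other annotated 3′ ends were not searched.

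The subunits of glutamate-cysteine ligase moved in opposite directions. Gclc, the catalytic subunit, was at 15.2 and 12.7 CPM in native GV libraries and 45.2 and 44.3 CPM in native MII libraries. In the sex-converted line it was at 11.9 and 15.2 CPM at GV and 52.8 and 43.4 CPM at MII. Every MII library lay above every GV library, and the log2 fold change was 1.68 in the native line (SE 0.249, adjusted p = 0.000128 in edgeR) and 1.83 in the sex-converted line (SE 0.249, adjusted p = 7.1e-05). Gclc was the 1 gene of the 10 that stayed called higher with libraries scaled by totals alone.

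Gclm, the modifier subunit that raises the activity of the catalytic one, was at 91.3 and 70.4 CPM in native GV and 28.1 and 32.2 CPM in native MII libraries. It was at 68.2 and 81.7 CPM in sex-converted GV and 46.2 and 32.6 CPM in sex-converted MII libraries. Every MII library lay below every GV library, with log2 fold changes of -1.43 in the native line (SE 0.251, adjusted p = 0.000448 in edgeR) and -0.93 in the sex-converted line (SE 0.247, adjusted p = 0.0065). The sex-converted call was lost without GV replicate 2 (-0.76, adjusted p = 0.0538 in edgeR) and without MII replicate 2 (-0.70, adjusted p = 0.0781).

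Because both subunits were counted in the same library, the ratio of their reads does not depend on the scaling. Gclc had 0.166 to 0.186 reads for each Gclm read in the 4 GV libraries and 1.14 to 1.61 in the 4 MII libraries. The mean ratio went from 0.173 ± 0.00988 to 1.49 ± 0.163 in the native line and from 0.18 ± 0.00855 to 1.24 ± 0.132 in the sex-converted line (SD, n = 2 each). The ratios are given as a description and were not tested.

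Gss, which completes the tripeptide, was near the limit of counting at MII. Native GV libraries held 29 and 35 reads and sex-converted GV libraries 39 and 47. At MII, all 5 reads lay in native replicate 1, and the other 3 libraries held 0. Per total reads and TMM, Gss was at least 15.1-fold lower at MII in the sex-converted line, taking 3 reads over the group as the floor (edgeR adjusted p = 0.00138). The bound was 8.08-fold with MII replicate 1 of that line left out and 7.02-fold with MII replicate 2 left out. In the native line it was 7.61-fold lower, with a counting interval of 3.10 to 24.2. Native MII replicate 1 was also the highest for granulosa markers, and without it Gss was at least 5.73-fold lower, while without MII replicate 2 it was 4.17-fold lower. The native call (log2 fold change -2.95, adjusted p = 0.0172 in edgeR) was lost without GV replicate 2 (adjusted p = 0.0582) or MII replicate 2 (adjusted p = 0.0645).

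Gsr, the reductase, was low throughout, with 6 to 36 reads in GV and 13 to 34 in MII libraries. Its log2 fold changes, 0.72 in the native line (SE 0.803) and 0.59 in the sex-converted line (SE 0.824), did not pass the test (adjusted p = 0.447 and 0.541 in edgeR). With 1 library left out the native value spanned 0.11 to 1.22. Native MII replicate 2 was at 1.62 CPM, beside 1.89 and 1.06 CPM in native GV libraries. The sex-converted GV libraries held 36 and 6 reads, and without the first of them the difference was 2.60 (adjusted p = 0.0304 in edgeR). Without the second of them it was -0.21 and not called, so the value for Gsr in this line depends on which GV library is used.

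Reads of the 2 glutathione peroxidases also moved apart. Gpx4, the selenoprotein that reduces lipid peroxides in membranes, was at 14.2 and 19.8 CPM in native GV and 2.77 and 1.04 CPM in native MII libraries. It was at 16.8 and 13.4 CPM in sex-converted GV and 2.52 and 1.24 CPM in sex-converted MII libraries. No MII library came near a GV library, and the log2 fold change was -3.12 in the native line (SE 0.482, adjusted p = 0.000177 in edgeR) and -3.01 in the sex-converted line (SE 0.483, adjusted p = 0.000229). The MII values rest on 9 to 29 reads a library, and the native fold change was -4.03 without MII replicate 1, which held the 29 reads. In the sex-converted line it was -3.60 without MII replicate 1.

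Gpx1, the abundant selenium-dependent peroxidase of the cytosol, was at 17.4 and 18.2 CPM in native GV and 39.8 and 25.2 CPM in native MII libraries. It was at 15.4 and 17.5 CPM in sex-converted GV and 25.7 CPM in both sex-converted MII libraries. Each MII library lay above each GV library with TMM. The native difference was called (0.87, SE 0.272, adjusted p = 0.0151 in edgeR) and the sex-converted one was not (0.64, SE 0.271, adjusted p = 0.0565), while with totals alone both were slightly negative (-0.04 and -0.29, adjusted p = 0.893 and 0.347 in edgeR). The native call was lost without MII replicate 1, the library high in granulosa markers (0.49, adjusted p = 0.194 in edgeR). The difference between the 2 lines' changes was -0.23, with an interval of -1.07 to 0.61, so the lines were not shown to differ. Reads of Gpx1 for each read of Gpx4 numbered 0.918 to 1.31 at GV and 10.2 to 24.2 at MII.

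Sod1, the copper-zinc dismutase of the cytosol, had the largest fitted fall of the 10 genes in the native line. It was at 395.0 and 329 CPM in native GV and 46.9 and 13.8 CPM in native MII libraries. In the sex-converted line it was at 309.7 and 359 CPM at GV and 25.4 and 15.3 CPM at MII. The MII libraries lay far below all GV libraries, and native MII replicate 1 stood above the other 3. The log2 fold change was -3.57 in the native line (SE 0.463, adjusted p = 4.97e-05 in edgeR) and -4.04 in the sex-converted line (SE 0.476, adjusted p = 2.48e-05). Without native MII replicate 1 the native value was -4.73, and without native MII replicate 2 it was -2.98, both still called. Relative to the tested genes, ranked by CPM per kilobase of exon, Sod1 went from the percentile 97.8 to 71.6 in the native line and from 97.7 to 65.8 in the sex-converted line.

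Sod2, the manganese dismutase of the mitochondrial matrix, was at 24.7 to 33.9 CPM in GV and 34.1 to 49.4 CPM in MII libraries. The difference did not pass the test in either line, with log2 fold changes of 0.31 (SE 0.244, adjusted p = 0.28 in edgeR) in the native and 0.51 (SE 0.245, adjusted p = 0.0884) in the sex-converted line. Scaled by totals, it was -0.60 and called lower in the native line (adjusted p = 0.0487 in edgeR) and -0.43 in the sex-converted line (adjusted p = 0.139). With TMM and 1 library left out, the native value spanned 0.0085 to 0.53. Native MII replicate 2, at 34.1 CPM, lay beside native GV libraries at 33.9 and 33.5 CPM. Within a library, Sod1 had 9.82 to 14.6 reads for each Sod2 read at GV and 0.382 to 0.95 at MII. All 4 MII libraries thus held fewer reads of Sod1 than of Sod2, and all 4 GV libraries more. Reads depend on length, and the longest coding transcript has 641 bases for Sod1 and 5861 for Sod2. Per kilobase of that transcript, mean Sod1 stayed above Sod2 at MII. The values were 47.3 ± 36.5 and 7.12 ± 1.84 CPM in the native line, and 31.8 ± 11.1 and 6.61 ± 0.314 in the sex-converted line (SD, n = 2 each). Per kilobase of joined exons the 2 genes overlapped at MII.

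Peroxiredoxins reduce peroxides through a reactive cysteine and are themselves reduced by thioredoxin. Prdx1, a cytosolic member, was at 328 and 375 CPM in native GV and 655 and 569 CPM in native MII libraries. It was at 286 and 320.2 CPM in sex-converted GV and 591 and 551 CPM in sex-converted MII libraries. Each MII library lay above each GV library with TMM, and the differences of 0.80 in the native line (SE 0.165, adjusted p = 0.00138 in edgeR) and 0.91 in the sex-converted line (SE 0.166, adjusted p = 0.000556) were called. With totals alone they were -0.12 and -0.02 and not called (adjusted p = 0.545 and 0.918 in edgeR), so the call of Prdx1 depends on the scaling. Both scalings give values relative to the other mRNAs. With 1 library left out, the native value with TMM spanned 0.68 to 0.89. Prdx1 stayed near the percentile 98 of tested genes by CPM per kilobase in all 4 groups, from 97.9 to 98.4.

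Prdx2, another cytosolic peroxiredoxin, did not separate by stage. Native GV libraries were at 232 and 395 CPM and native MII libraries at 296 and 225 CPM, and sex-converted ones at 370.2 and 244 CPM at GV and 225 and 402 CPM at MII. Replicates of a group differed from each other more than the groups did. The log2 fold changes were -0.27 (95% interval -0.98 to 0.45) in the native line and 0.03 (-0.68 to 0.75) in the sex-converted line, neither called. With totals alone Prdx2 was called lower in both lines, at -1.19 (adjusted p = 0.0109 in edgeR) and -0.91 (adjusted p = 0.0355). The ratio of Prdx1 to Prdx2 reads was 0.772 to 1.42 at GV and 1.37 to 2.63 at MII, and the ranges overlapped.

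**Figure D2:**
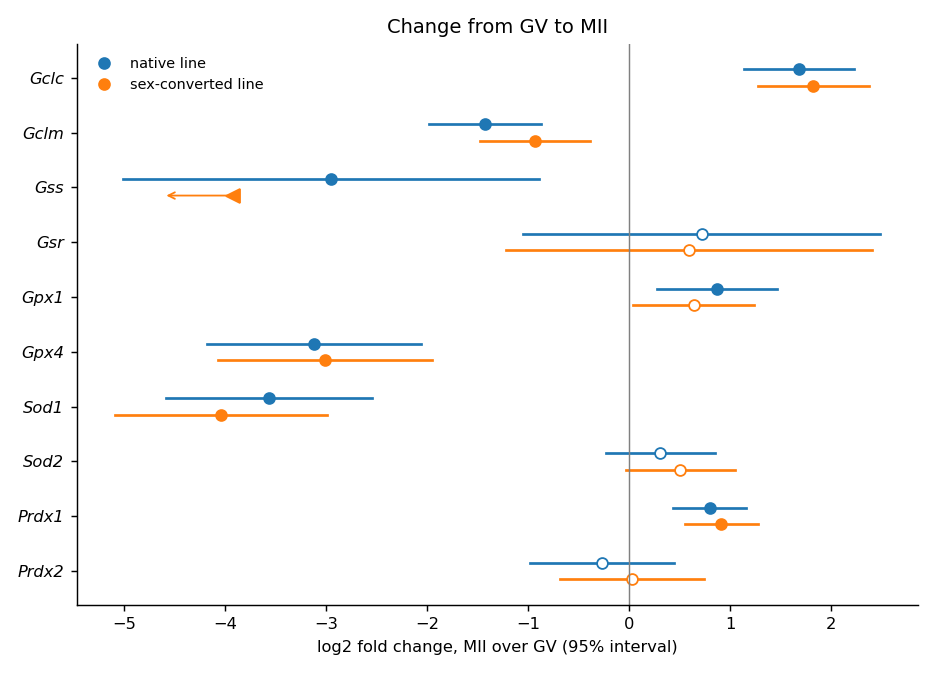
Log2 fold change of MII over GV (horizontal axis) with its 95% interval for each enzyme in the native line (blue) and the sex-converted line (orange), from the edgeR fit with TMM. Filled points were called at an adjusted p under 0.05. The triangle with an arrow marks -3.92 for Gss, which had 0 reads in sex-converted MII libraries. That value rests on a floor of 3 reads and is not the end of a 95% interval. Gclc, Gpx1 and Prdx1 lie to the right and Gclm, Gss, Gpx4 and Sod1 to the left in both lines, and with libraries scaled by totals Gpx1 and Prdx1 move to the left of 0.

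**Figure D3:**
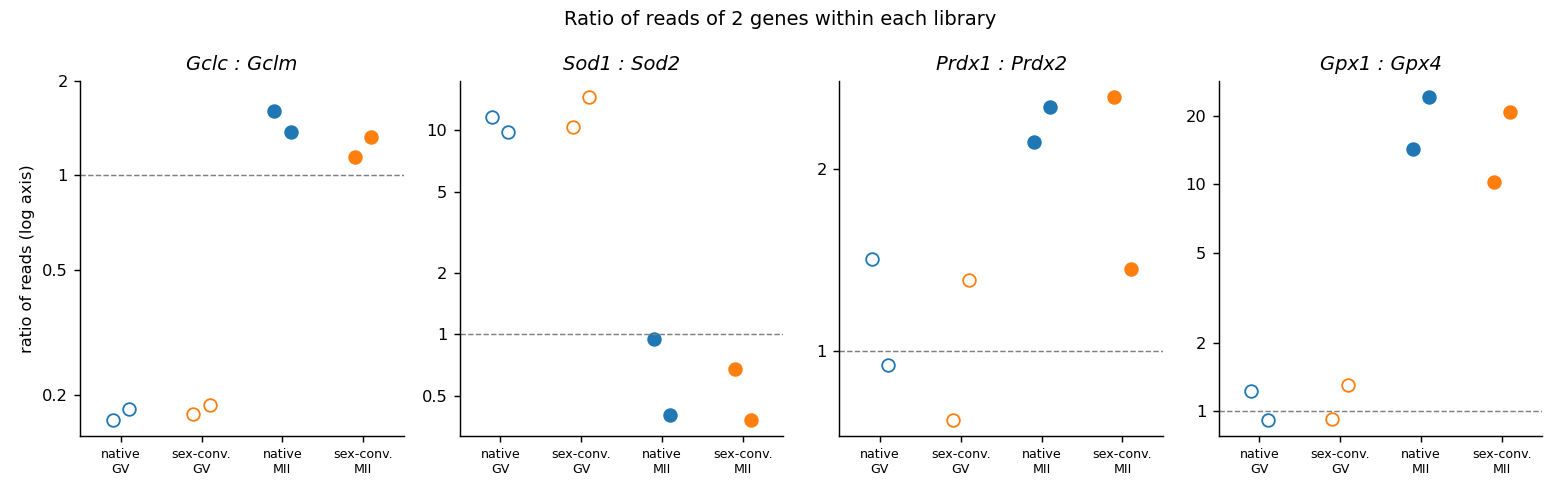
Reads of 1 enzyme for each read of another in the same library (vertical axes, log scale), with native libraries in blue, sex-converted in orange, GV open and MII filled, and a dashed line at equal reads. Equal reads are not equal levels, since the transcripts differ in length. Ratios of Gclc to Gclm and of Gpx1 to Gpx4 are higher in all 4 MII libraries, the ratio of Sod1 to Sod2 is lower in all 4, and that of Prdx1 to Prdx2 overlaps between stages.

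Levels can be compared between genes only per length, here as CPM per kilobase of joined exons. In native GV oocytes, Prdx1 (116 ± 10.9), Prdx2 (103 ± 38.0) and Sod1 (91.2 ± 11.8) led (SD, n = 2 each). Prdx2 overlapped both others, and Prdx1 lay above Sod1 in each library. Gclm (12.9 ± 2.35), Gpx1 (12.4 ± 0.415) and Gpx4 (9.86 ± 2.34) followed, again within their spread. Below them came Gclc (3.69 ± 0.466) and Sod2 (3.37 ± 0.0262), and last Gsr (0.535 ± 0.215) and Gss (0.345 ± 0.101). In native MII oocytes Prdx1 (201 ± 20.0) stood above Prdx2 (85.4 ± 16.6), and Gpx1 (22.6 ± 7.16) and Gclc (11.9 ± 0.159) came next. Sod1 (7.64 ± 5.90), Gclm (4.79 ± 0.460) and Sod2 (4.17 ± 1.08) overlapped, and the spread of Sod1 also reached that of Gclc. They were followed by Gpx4 (1.11 ± 0.709), Gsr (0.884 ± 0.418) and Gss (0.0404 ± 0.0571). Sex-converted oocytes were in the same tiers, with Prdx2, Prdx1 and Sod1 at 100.7, 99.6 and 84.2 at GV, and Prdx1 at 188 and Sod1 at 5.13 at MII. The length used moves Sod1 most, since its longest coding transcript has 641 bases and its joined exons 3970. On the transcript length, Sod1 was at 565 ± 72.9 CPM per kilobase in native GV oocytes, above Prdx2 at 194 ± 71.9 and Prdx1 at 153 ± 14.5 (SD, n = 2 each). In native MII oocytes that length placed Sod1 (47.3 ± 36.5) above Gpx1 (30.3 ± 9.63) and Gclc (13.1 ± 0.175), with a spread that reached both. In native GV oocytes it also placed Gss (1.04 ± 0.305) above Gsr (0.552 ± 0.222), the reverse of their order by joined exons.

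Several of these genes have near-identical copies or neighbours that could share reads, and the sources used here do not say how such reads were counted. By alignment of transcripts at 97% identity or more over at least 75 bases, Sod1 has the processed pseudogene Gm8566 with 3606 reads over all libraries against 25333 in Sod1. The reads of Gm8566 fell with those of Sod1, from 721 to 997 at GV to 22 to 86 at MII. Gpx4 has Gpx4-ps2 with 226 reads against 1165, and Prdx1 has Gm21399 and Gm7204 with 3403 reads together against 45569. With the copies' reads added, the 3 genes kept their calls in both lines, at -3.53 and -3.99 for Sod1, -2.67 and -2.75 for Gpx4, and 0.75 and 0.84 for Prdx1 (native and sex-converted line). Sod2 has short matches with 4 other genes, of which Exd1, matched over 78 bases on the opposite strand, held 2844 reads against 3666 in Sod2, and these were not added. Prdx2 matches Rnaseh2a and Junb, and Gss matches Acss2, in sequence on the opposite strand, and without the counting strand their reads cannot be fully told apart.

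No enzyme was called between the lines. At GV 0 of 10 passed edgeR's test, 0 had an unadjusted p under 0.05 and DESeq2 called 0, beside 0.0134% of all tested genes called and 319 genes at an unadjusted p under 0.05. At MII the counts were also 0 of 10 by each measure, beside 0.0134% of all genes called and 549 at an unadjusted p under 0.05. The narrowest intervals were those of Prdx1, whose sex-converted over native difference was -0.22 at GV (95% interval -0.58 to 0.15) and -0.10 at MII (-0.46 to 0.26). Gclc differed by -0.04 at GV (-0.58 to 0.50) and by 0.10 at MII (-0.43 to 0.63). Gclm differed by -0.11 at GV (-0.64 to 0.42) and by 0.39 at MII (-0.16 to 0.94). Sod1 was at -0.11 at GV (-1.02 to 0.80) and at -0.59 at MII (-1.56 to 0.38), the latter ranging from -1.19 to 0.58 when 1 library was left out. Gss at MII apart, where 5 reads in 1 library stood against 0, the widest intervals were those of the scarce Gsr, from -2.08 to 1.46 at GV and -2.24 to 1.37 at MII. The other differences lay between -0.31 and 0.18 at GV and between -0.34 and 0.27 at MII.

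The change from GV to MII was also compared between the lines, as the sex-converted change minus the native one. No gene of the 14929 was called (0%), 329 had an unadjusted p under 0.05, and DESeq2 called 0. Of the 10 enzymes 0 had an unadjusted p under 0.05. The differences were 0.14 for Gclc (95% interval -0.62 to 0.90), 0.50 for Gclm (-0.27 to 1.26), 0.11 for Gpx4 (-1.37 to 1.60), -0.47 for Sod1 (-1.80 to 0.86) and 0.12 for Prdx1 (-0.40 to 0.63). These intervals leave room for changes that differ by more than 1 log2 unit for Gclm, Gpx4 and Sod1.

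**Figure D4:**
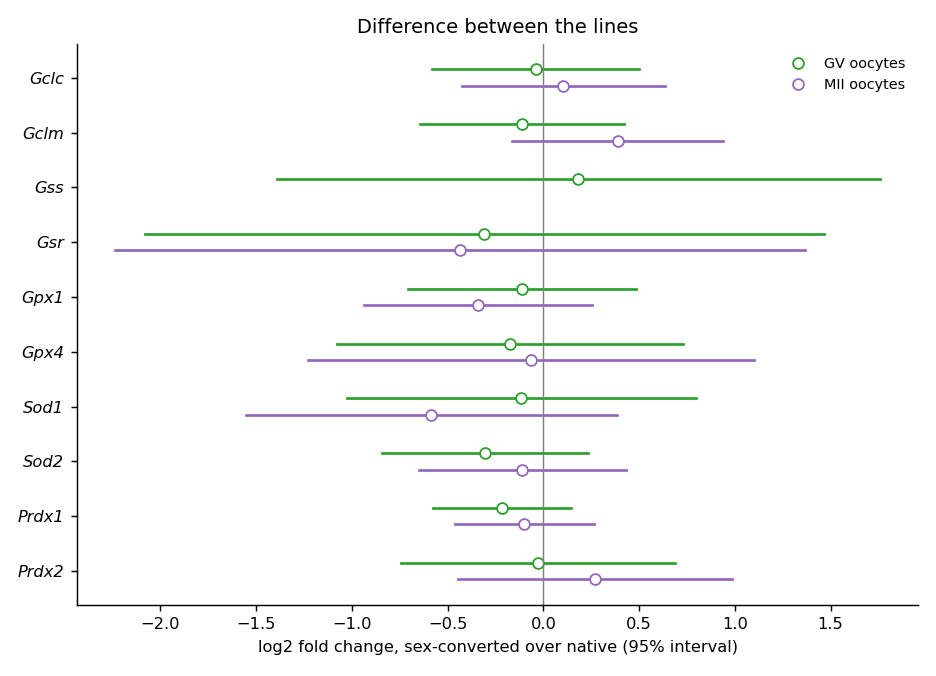
Log2 fold change of sex-converted over native oocytes (horizontal axis) with its 95% interval at GV (green) and MII (purple), from the edgeR fit. All points are open, since none was called, and Gss at MII is left out because 3 of the 4 libraries held 0 reads.

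Around the 10 enzymes, 9 lists of related genes with 102 members were followed, of which 77 were tested. In the native line 19 were called higher at MII (24.7%) and 34 lower (44.2%), beside 29.6% and 35.7% of all tested genes. For the sex-converted line 21 were higher (27.3%) and 34 lower (44.2%), beside 29.3% and 36.2% of all tested genes. These backgrounds hold for each list below, and no list was tested against them. The lists had median log2 fold changes of -0.63 and -0.33 beside -0.31 and -0.35 over all genes. With totals alone the counts were 14 and 45 in the native and 14 and 44 in the sex-converted line. Between the lines 0 were called at either stage and 0 in the interaction.

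Suppliers of cysteine, the limiting building block of glutathione, included the largest rise of the 77 tested genes. Of 11 tested genes for cysteine supply and glutathione breakdown, 6 were higher (54.5%) and 4 lower (36.4%) in each line. Slc7a11, which encodes the cystine importer of the plasma membrane, was at 109.7 and 119 CPM in native GV and 871 and 984 CPM in native MII libraries. It was at 125 and 126 CPM in sex-converted GV and 971 and 918 CPM in sex-converted MII libraries. The log2 fold changes were 3.02 (SE 0.166, adjusted p = 3.61e-07 in edgeR) and 2.91 (SE 0.165, adjusted p = 4.63e-07). Cth, which makes cysteine from cystathionine, rose by 2.36 and 2.17 in log2. Abcc1, an exporter of glutathione and its conjugates, was at -3.05 and -3.65, the latter -5.33 without sex-converted MII replicate 1 and -2.86 without replicate 2. Abcc4, another exporter, was at -0.70 and -0.71, a call lost without native GV or MII replicate 1, and without sex-converted GV or MII replicate 2 (adjusted p = 0.0649 to 0.0973 in edgeR).

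NADPH feeds both glutathione and thioredoxin reduction. Of 11 tested genes for its supply, 3 were higher (27.3%) and 6 lower (54.5%) in the native line, beside 29.6% and 35.7% of all genes. There were 4 higher (36.4%) and 7 lower (63.6%) in the sex-converted line, beside 29.3% and 36.2%. G6pdx, the entry enzyme of the pentose phosphate pathway, was at 644 and 495 CPM in native GV and 38.7 and 33.3 CPM in native MII libraries. It was at 455 and 588 CPM in sex-converted GV and 37.2 and 28.0 CPM in sex-converted MII libraries. Its log2 fold changes were -3.98 (SE 0.243, adjusted p = 5.03e-07 in edgeR) and -4.00 (SE 0.243, adjusted p = 5.81e-07). Tkt, a transketolase of the same pathway, was at -3.30 and -3.40. Idh1, the cytosolic isocitrate dehydrogenase that makes NADPH, rose by 2.17 and 2.49, and Taldo1, a transaldolase, by 2.20 and 2.22.

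The glutaredoxins, which use glutathione to reduce disulfides or to handle iron-sulfur clusters, were lower in 3 of 4 tested genes in the native and 4 of 4 in the sex-converted line, and 0 were higher. Glrx3 was at -5.34 and -5.62 and Glrx5 at -2.88 and -2.93. Without native MII replicate 1, the library high in somatic markers, their native values were -6.62 and -3.78. In the thioredoxin system 4 of 8 were lower in the native and 3 of 8 in the sex-converted line, and 0 higher. With totals alone 6 and 7 were lower, and with relative log expression factors 3 were lower and 1 higher in each line. Txnrd3, a thioredoxin and glutathione reductase, was at -3.54 and -4.33, and Txndc12, a thioredoxin-like protein of the endoplasmic reticulum, at -3.27 and -4.20. Without native MII replicate 1 these were -4.49 and -4.16 in the native line, and without sex-converted MII replicate 1 they were -5.12 and -4.87 in the sex-converted line.

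Among 4 other peroxiredoxins 2 were lower in both lines and 0 higher. These were Prdx5 at -1.85 and -1.84 and the mitochondrial Prdx3 at -3.23 and -3.29, the latter -5.15 without sex-converted MII replicate 1 and -2.46 without replicate 2. Of 15 glutathione S-transferases 1 was higher and 8 lower in the native line (6.67% and 53.3%), and 2 and 7 in the sex-converted line (13.3% and 46.7%). With a filter at a mean of 50 reads 4 were lower in each line. Gsta4, which conjugates products of lipid peroxidation, was at -5.23 and -5.74, Gstt2 at -2.87 and -3.11, and the microsomal Mgst3 at 1.93 and 1.79. Without native MII replicate 1 the native values were -6.15 for Gsta4 and -3.48 for Gstt2.

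Among 4 other tested peroxidases and helpers, 2 were higher and 1 lower in each line. However, 1 of the higher calls and the lower call were each lost in several settings, among them other filters and single libraries left out. Gpx3, the secreted glutathione peroxidase, rose by 1.78 in both lines. The other gene called higher was not the same in the 2 lines. The 6 tested genes for making selenoproteins, the class to which Gpx1 and Gpx4 belong, were all called in each line, 4 higher and 2 lower. Sephs2, which makes the selenium donor, rose by 2.47 and 2.56, and its relative Sephs1 by 2.31 and 1.97. Eefsec, the elongation factor that delivers selenocysteine, was at -5.23 and -6.16, the latter -7.37 without sex-converted MII replicate 1 and -5.45 without replicate 2. Pstk, a kinase acting on the transfer RNA of selenocysteine, was at -3.32 and -3.29.

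Nrf2 is the transcription factor that drives many of these genes in somatic cells. Of 14 tested genes of its pathway, 3 were higher (21.4%), 4 lower (28.6%) and 7 not called in each line, and with totals alone 1 and 7 in the native and 0 and 7 in the sex-converted line. Nfe2l2, which encodes Nrf2, was at 1.21 and 1.02 with TMM, but its call was lost with totals alone (0.30 and 0.09), without native GV or MII replicate 2, and without sex-converted GV replicate 1 or MII replicate 2. Mafg, a partner of Nrf2 on DNA, was at 1.85 and 1.71, the latter not called with totals alone (0.77, adjusted p = 0.0891 in edgeR). Its native GV libraries differed, at 48.6 and 122 CPM, and without replicate 2 the native value was 2.66. Keap1, which marks Nrf2 for breakdown, was at -2.61 and -3.07, and Fth1, the ferritin heavy chain, at -1.94 and -1.77.

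**Figure D5:**
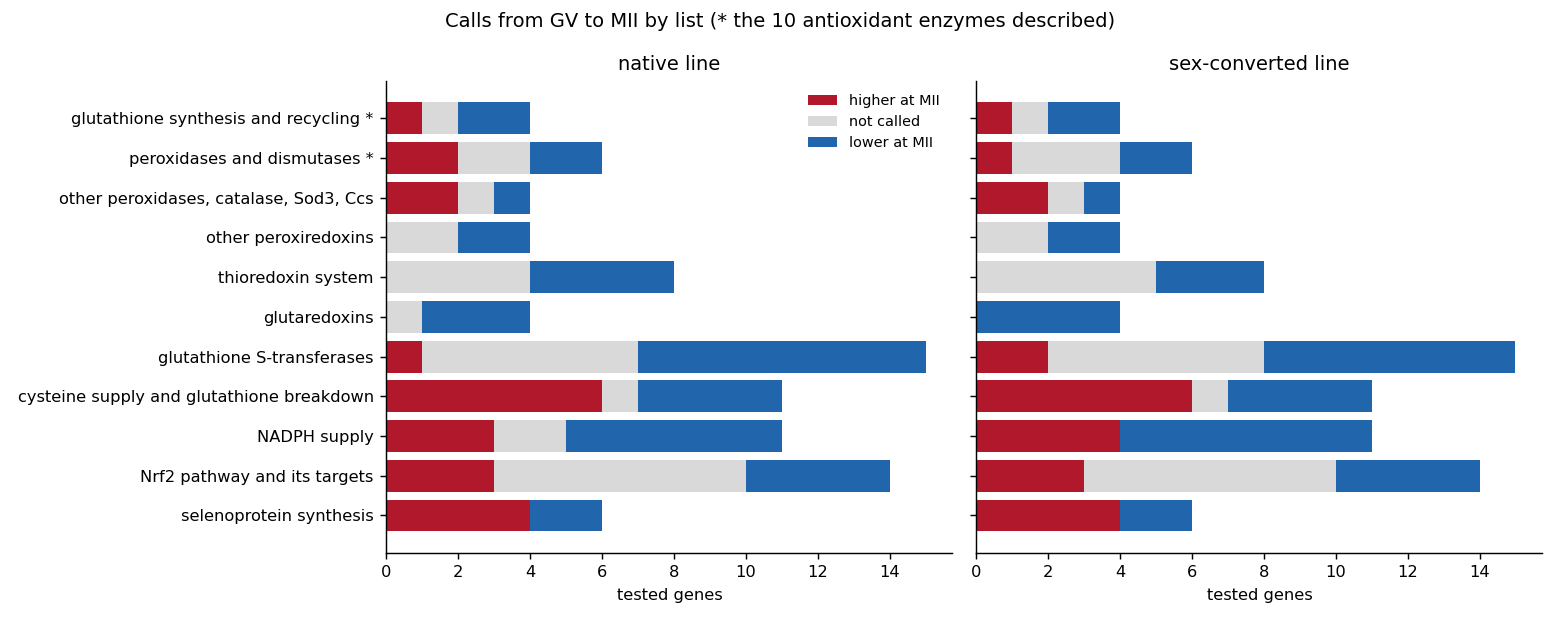
Number of tested genes (horizontal axis) in each list that were called higher (red), lower (blue) or not called (grey) at MII against GV in the native and the sex-converted line, from the edgeR fit with TMM; stars mark the 10 enzymes. Glutaredoxins, other peroxiredoxins and the thioredoxin system hold no higher call on this scale, though 1 thioredoxin gene was called higher under other settings, and selenoprotein genes hold calls in both directions.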

How the data were processed

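The authors deposited raw counts of reads per gene for 8 libraries in 1 table, whole numbers with no normalization. Per the submitters' processing notes, Trimmomatic 0.38, HISAT2 2.1.0, featureCounts 2.0.0 and DESeq2 1.30.1 were used with the build mm10. The sources used here do not give the annotation release, the counting strand or the handling of reads with several matches. Genes were named from GENCODE M21 on GRCm38, the assembly of mm10 (55144 matched, 241 did not, with 0.00326% of reads).

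All libraries entered 1 fit in edgeR 4.0.16 (R 4.3.3; quasi-likelihood test, TMM factors, filterByExpr with a minimum count of 10, 4 residual degrees of freedom), with 1 coefficient per group and no replicate block. Tests were two-sided and adjusted by Benjamini-Hochberg over the 14929 genes kept, and the common biological coefficient of variation was 0.243. CPM are counts scaled by total and TMM. Standard errors are approximate, from the F statistic. P-values rest on the spread between the duplicate libraries, which the fit moderates for each gene with that of other genes. The fit was run on simulated counts only for the comparison of the lines at GV. Calls of MII against GV were not checked in this way.

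The 10 genes and the related and marker lists were chosen with earlier results of these data known. From each related list the text names up to 2 genes in each direction called in both lines with the largest mean change, provided that the higher group of each line averaged 10 CPM or more. Alternatives were DESeq2 1.42.0, relative log expression (RLE) factors, library totals, no filter or a mean of at least 50 reads, a replicate block, only the libraries compared and leaving out each library. Chosen after seeing the data were the reads of copies added, the transcript length, the crossed block and the lists' and ratios' alternatives. Protein sequences were not used here.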

Additional observations from a re-analysis of the deposited data

How the results depend on the processing

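In the native line 6 to 7 and in the sex-converted line 5 to 7 of the 10 enzymes were called between GV and MII under every alternative run, and 0 between the lines and in the interaction. The filter at a mean of 50 reads leaves out Gss and Gsr. The sex-converted change of Gpx1 was called with RLE factors (0.69, adjusted p = 0.0368 in edgeR) and with only the libraries compared (0.64, adjusted p = 0.0462). Scaling by library totals reversed Gsr (-0.18), Gpx1 (-0.0425), Sod2 (-0.60) and Prdx1 (-0.12) in the native line. In the sex-converted line it reversed Gsr (-0.35), Gpx1 (-0.29), Sod2 (-0.43), Prdx1 (-0.0201) and Prdx2 (-0.91). It moved the median of all genes by -0.91 and -0.93, and it does not correct for a change in composition. The sex-converted change of Prdx2 was also negative with no filter (-0.0185), with a mean of 50 reads (-0.0763) and with the replicate block (-0.00643). Between the lines at GV, Gclc (0.00792) and Prdx2 (0.0187) reversed with totals, and Prdx2 with the replicate block (0.00680). In the interaction, Gsr reversed with the replicate block (0.16) and Gpx4 with copies added (-0.0819). The cause was not tested.

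Leaving out 1 library reversed differences that were not called. These spanned -0.59 to 0.16 for native Prdx2, -0.21 to 2.60 for sex-converted Gsr and -0.45 to 0.39 for sex-converted Prdx2. Between the lines at GV they spanned -0.24 to 0.14 for Gclc, -0.29 to 0.10 for Gclm, -0.0823 to 0.51 for Gss, -2.30 to 0.51 for Gsr, -0.39 to 0.0832 for Gpx4, -0.24 to 0.0357 for Sod1 and -0.35 to 0.40 for Prdx2. At MII they spanned -0.0309 to 0.25 for Gclc, -0.97 to 0.18 for Gsr, -0.61 to 0.0419 for Gpx1, -0.63 to 0.84 for Gpx4, -1.19 to 0.58 for Sod1, -0.33 to 0.20 for Sod2, -0.18 to 0.0204 for Prdx1 and -0.20 to 0.64 for Prdx2. In the interaction they spanned -0.0240 to 0.35 for Gclc, -0.93 to 1.89 for Gsr, -0.50 to 0.16 for Gpx1, -0.45 to 1.02 for Gpx4, -1.07 to 0.69 for Sod1, -0.0196 to 0.51 for Sod2 and -0.16 to 0.68 for Prdx2. A group with 1 library left is assumed to vary like the others.

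Over 7683 genes, same-numbered libraries of the lines had deviations correlated at -0.75 at GV and 0.28 at MII. Those of the stages were correlated at 0.12 (sex-converted) and -0.04 (native). At GV, libraries of opposite number thus shared deviations across the lines, and the source of this was not tested. With the replicate block 7 enzymes were called in the native and 6 in the sex-converted line, as without it. With crossed numbers at GV, 2 genes and 0 of the 10 enzymes were called between the lines. The changes from GV to MII are not given with crossed numbers. Depth limits Gss (0 to 5 reads at MII), Gsr (6 to 36 reads) and Gpx4 at MII (9 to 29 reads).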
